A study of Mus musculus with 24 samples.

Results

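The DNA replication and E2F genes described here are 38 mouse genes, chosen by symbol from a list of known replication and G1/S genes, out of 55335 genes in the files. No measured value enters that rule, although earlier results of these data were known when the list was made. They comprise 4 E2F transcription factors, 4 genes for G1/S cyclins and CDK2, 10 for origin licensing and helicase activation, 6 for the MCM2-7 helicase, 10 for polymerases, the sliding clamp, its loader and other fork proteins, and 4 for nucleotide synthesis enzymes. Each symbol matched 1 gene, the genes lie on 14 chromosomes, and all 38 had at least 1 FPKM in at least 3 libraries of each tumour line, so that all were tested.

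Cells enter S phase when cyclin D and cyclin E kinases phosphorylate the RB proteins, which frees E2F transcription factors to switch on genes for DNA synthesis. In G1 the origin recognition complex, CDC6 and CDT1 load the MCM2-7 helicase onto origins, and CDC45, MCM10 and the GINS complex later help to turn it into an active helicase. DNA polymerase alpha with its primase then starts new strands, replication factor C loads the PCNA clamp for the other polymerases, and ribonucleotide reductase, thymidylate synthase and thymidine kinase supply the nucleotides. CHEK2 encodes the checkpoint kinase CHK2, which is activated after DNA double-strand breaks.

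RNA was sequenced from whole tumours grown from 2 mouse cancer lines: MC38, derived from a colon carcinoma, and B16, derived from a melanoma. Both lines had 4 groups: CHEK2-knock out tumours (KO) given anti-PD-1, an antibody against the T cell receptor PD-1, KO tumours given PBS, parental CHEK2-WT tumours (WT) given anti-PD-1, and WT tumours given PBS. Each of the 8 groups had 3 libraries, 24 in all, and the series' design text assigns the knock-out to the tumour cells, while whole tumour tissue also holds host cells. The mouse strain, age and sex, the part of Chek2 that was altered, whether a KO line is 1 clone, and whether the 3 libraries of a group are 3 animals are not given in the sources used here, so p-values measure the spread between these libraries, which may be technical. Values are the authors' FPKM (fragments scaled for transcript length and library size), and differences are given as log2 of (FPKM + 1) with the standard error of the limma fit, which understates the change of genes with low levels.

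Chek2 RNA was lower in KO tumours but was not absent from them. It had 1.92 to 3.37 FPKM in MC38 KO tumours against 4.61 to 6.14 FPKM in MC38 WT tumours, and 5.64 to 6.75 FPKM in B16 KO tumours against 7.17 to 9.29 FPKM in B16 WT tumours, with no overlap within either line. The difference averaged over treatments was -0.80 ± 0.07 (adjusted p = 3.43e-05) in MC38 and -0.34 ± 0.061 (adjusted p = 0.00285) in B16. Depth is known only roughly, because the files hold no counts: the smallest steps of the values correspond to between 13340000 and 23710000 fragments per library. Replicates of a group correlated at 0.979 to 0.992 over genes. The FPKM values of a library summed to between 310868 and 398474, and the 3 B16 KO libraries under anti-PD-1 had the 3 largest sums. The melanocyte genes Mlana, Tyr and Tyrp1 were abundant in B16 and near 0 in MC38, while the intestinal factor Cdx2 was at 0 in all MC38 libraries. In whole tumours, fewer cells of a type and less RNA per cell cannot be told apart.

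E2F proteins bind short DNA elements, and the letters of such elements were frequent in front of these genes. The RefSeq promoter table (assembly GRCm38.p6) holds windows that run from 250 bases before to 50 bases after a gene's start, and 32 of the 38 genes matched with 36 windows. Ccne2, Ccnd1, Gins1, Gins2, Gins4 and Mcm4 were not matched. The letters TTTCCCGC, TTTGGCGC, TTTCGCGC or TTTGCCGC, searched on both strands, stood in 15 of the 36 windows (41.67%), against 2.26% of the 32851 windows of the table and 1 of 21 windows of mitosis genes (4.76%). TTTCGCGC on one strand and TTTGGCGC on the other can share letters, as they do in Mcm5 and Mcm6. By role, 4 of 6 windows of MCM2-7 genes, 4 of 7 of origin genes and 4 of 12 of fork genes held the letters, and none of 4 windows of nucleotide synthesis genes did. TTTGAA, the CHR letters of genes expressed in G2 and mitosis, stood in 6 of the 36 windows (16.67%), close to the 17.89% of all windows and below the 76.19% (16 of 21) of mitosis genes.

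4 stretches with the letters are shown, picked after the values were seen because these genes were called lower in KO tumours, Mcm5 and Mcm6 in MC38 and Pola1 and E2f7 in B16. They are in the direction of transcription, 5′ to 3′, and capitals mark the E2F letters on either strand.
Mcm5 (chr8:75109316-75109407, plus strand): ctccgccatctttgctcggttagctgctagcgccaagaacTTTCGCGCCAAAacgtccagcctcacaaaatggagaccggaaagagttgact
Mcm6 (chr1:128359705-128359855, minus strand): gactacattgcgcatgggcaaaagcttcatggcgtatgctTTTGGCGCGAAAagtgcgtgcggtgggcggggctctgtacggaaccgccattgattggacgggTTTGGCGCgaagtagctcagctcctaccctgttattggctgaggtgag
Pola1 (chrX:93632246-93632333, minus strand): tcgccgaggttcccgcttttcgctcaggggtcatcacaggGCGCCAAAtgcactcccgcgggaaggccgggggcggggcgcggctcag
E2f7 (chr10:110745201-110745288, plus strand): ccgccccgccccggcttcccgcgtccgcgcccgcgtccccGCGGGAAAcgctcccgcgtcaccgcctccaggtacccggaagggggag
Mcm6 held 2 separate runs of such letters, while the other 3 stretches held 1 each. The median log2 difference between KO and WT tumours is given for the 15 genes with the letters and then for the 17 genes with a window but without them. In MC38 it was -0.26 and -0.11 under anti-PD-1 and -0.052 and -0.15 under PBS. In B16 it was -0.060 and 0.14 under anti-PD-1 and -0.17 and -0.13 under PBS. Averaged over treatments, 4 of the 15 and 7 of the 17 genes were called lower in MC38 KO tumours, and 0 and 3 higher. E2f1, Prim1, Rfc5 and Tk1 are among those 7. In B16 KO tumours 2 and 1 were called lower, and 0 and 0 higher. These pairs were not tested. A match of letters is a description of sequence and does not show binding.

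In MC38, KO tumours had less RNA than WT tumours for E2f1, for 3 of the 4 GINS subunits, for primase, for part of the clamp loader and for thymidine kinase, and more RNA for Mcm2, Mcm10 and Rrm2. Averaged over the treatments, 14 of the 38 genes were called lower in KO tumours and 3 higher at an adjusted p under 0.05, while 14% of all 14209 tested genes were called lower and 13.4% higher. The median log2 difference was -0.13 over the 38 genes and -0.0017 over all tested genes. The 14 lower genes were E2f1; Orc6, Cdc45, Gins1, Gins2 and Gins4; Mcm5, Mcm6 and Mcm7; Prim1, Rfc3, Rfc5 and Rpa2; and Tk1. None of the 4 G1/S cyclin and CDK2 genes was called.

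E2f1 (ENSMUSG00000027490, chr2:154559407-154569892, minus strand, build mm10), an activator of the E2F family, was the only one called among the 4 E2F genes of the 38. It had 11.3, 10.04 and 12.2 FPKM in KO tumours under anti-PD-1 and 11.3, 12.9 and 11.2 FPKM in KO tumours under PBS, against 18.9, 19.7 and 19.7 FPKM in WT tumours under anti-PD-1 and 17.999, 19.7 and 21.7 FPKM in WT tumours under PBS. All 6 KO libraries lay below all 6 WT libraries. The group means were 11.2 ± 1.08 and 19.4 ± 0.49 FPKM in KO and WT tumours under anti-PD-1, and 11.8 ± 0.993 and 19.8 ± 1.86 FPKM in KO and WT tumours under PBS (SD, n = 3 each). Its log2 difference was -0.75 ± 0.089 (adjusted p = 0.000852) under anti-PD-1 and -0.70 ± 0.089 (adjusted p = 0.000588) under PBS. The other E2F genes, the activator E2f2 and the repressors E2f7 and E2f8, were not called in this comparison, with averaged differences of 0.24 ± 0.091, -0.16 ± 0.076 and 0.015 ± 0.068. The 4 E2F genes together summed to 28.1 to 32.5 FPKM in KO tumours under anti-PD-1 and 25.98 to 29.7 under PBS, against 35.6 to 39.8 FPKM in WT tumours under anti-PD-1 and 34.9 to 36.5 under PBS.

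**Figure D1:**
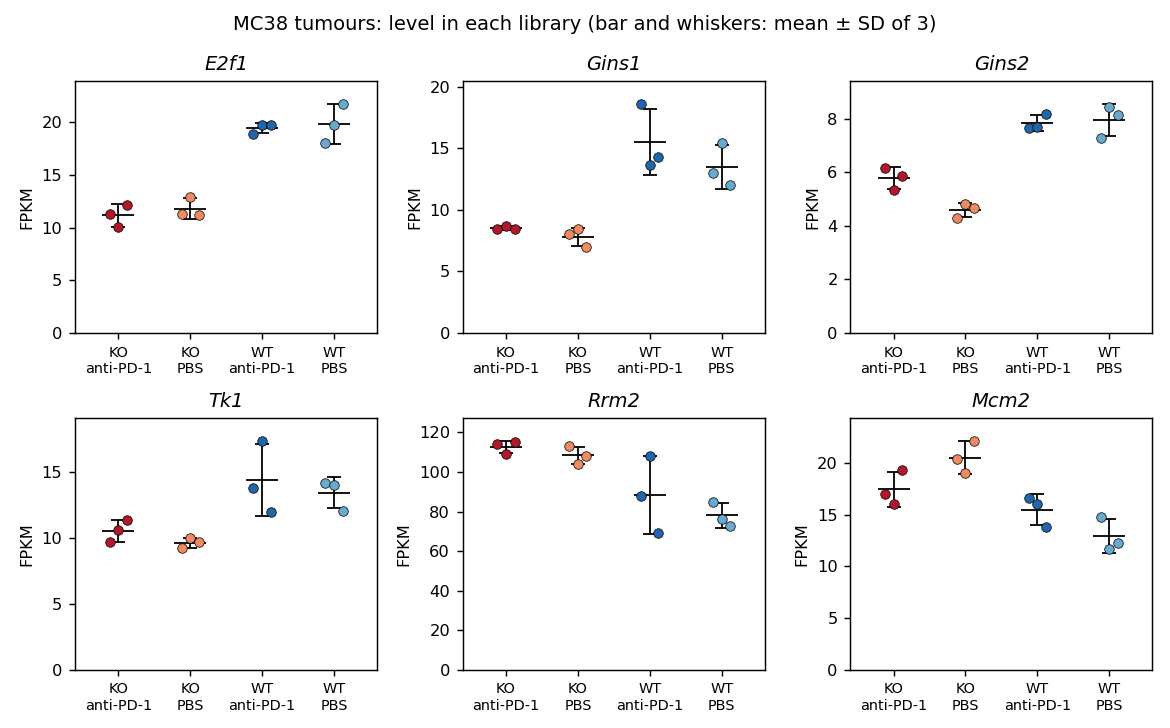
FPKM of 6 genes in the 12 MC38 libraries, by group from left to right: KO under anti-PD-1, KO under PBS, WT under anti-PD-1 and WT under PBS. Each point is a library and each bar is a group mean with its SD (n = 3), on axes that start at 0. E2f1, Gins1, Gins2 and Tk1 sit lower in KO than in WT tumours under both treatments, and Mcm2 and Rrm2 sit higher in KO tumours under PBS.

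Among the origin genes, Gins1 and Gins2 had the 2 largest log2 differences averaged over treatments. They encode subunits of GINS, which holds CDC45 and the MCM ring together in the active helicase. Gins1 (ENSMUSG00000027454, chr2:150905400-150931280, plus strand) had 8.49, 8.72 and 8.45 FPKM in KO tumours and 18.6, 13.7 and 14.3 FPKM in WT tumours under anti-PD-1. Under PBS it had 8.03, 8.42 and 7.02 FPKM in KO tumours and 12.999, 15.5 and 12.1 FPKM in WT tumours. The KO libraries were below the WT libraries under each treatment, with log2 differences of -0.78 ± 0.12 (adjusted p = 0.00275) under anti-PD-1 and -0.71 ± 0.12 (adjusted p = 0.00228) under PBS.

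Gins2 (ENSMUSG00000031821, chr8:120578633-120589304, minus strand) had 6.17, 5.36 and 5.87 FPKM in KO tumours and 7.66, 7.70 and 8.18 FPKM in WT tumours under anti-PD-1, and 4.30, 4.82 and 4.68 FPKM in KO tumours and 7.28, 8.45 and 8.13 FPKM in WT tumours under PBS. It too was without overlap under each treatment, with log2 differences of -0.38 ± 0.075 (adjusted p = 0.00937) under anti-PD-1 and -0.68 ± 0.075 (adjusted p = 0.000301) under PBS. Gins2 lies opposite Gse1 over 2758 bases, and opposite a second gene over its whole length of 10672 bases. Since the sources used here do not state whether counting used strand, reads of either strand cannot be told apart there. Gins4 was called under PBS, at -0.47 ± 0.092 (adjusted p = 0.00529), and had -0.29 ± 0.092 (adjusted p = 0.068) under anti-PD-1. Gins3 went apart from the other subunits. It had 5.99, 5.57 and 5.76 FPKM in KO tumours and 7.33, 7.94 and 7.32 FPKM in WT tumours under anti-PD-1, and 7.33, 6.48 and 7.50 FPKM in KO tumours and 6.50, 6.68 and 5.99 FPKM in WT tumours under PBS. It was lower in KO tumours under anti-PD-1, at -0.33 ± 0.071 (adjusted p = 0.014), and not called under PBS, at 0.13 ± 0.071 (adjusted p = 0.207). The difference between those differences was -0.46 ± 0.10 (adjusted p = 0.0434), and Gins3 was the only one of the 38 genes called in this interaction, against 0.626% of all tested genes called lower and 1.81% higher. That call was lost when any of the 12 libraries was left out, at adjusted p between 0.0502 and 0.112.

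Mcm10, which helps to turn the loaded helicase on, was higher in KO tumours under PBS. It had 5.23, 5.82 and 5.11 FPKM in KO tumours and 4.29, 3.67 and 3.04 FPKM in WT tumours under PBS, without overlap, a log2 difference of 0.46 ± 0.093 (adjusted p = 0.00587). Under anti-PD-1 it had 5.16, 5.25 and 5.32 FPKM in KO tumours and 4.88, 4.71 and 4.74 FPKM in WT tumours, and the difference was 0.11 ± 0.093 (adjusted p = 0.468). Orc6, a subunit of the origin recognition complex, was lower at -0.35 averaged over treatments, and Cdc45, the helicase cofactor, at -0.20. The licensing genes Orc1, Cdc6 and Cdt1 were not called, at 0.28 ± 0.10, -0.15 ± 0.11 and 0.086 ± 0.10. The 10 origin genes together summed to 94.6 to 99.4 FPKM in KO tumours and 116 to 124 FPKM in WT tumours under anti-PD-1, and to 83.2 to 93.2 FPKM in KO tumours and 95.8 to 112 FPKM in WT tumours under PBS. KO and WT tumours did not overlap in that sum under either treatment.

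The subunits of the MCM2-7 ring, which are needed in equal numbers in the protein complex, did not move together. Mcm2 (ENSMUSG00000002870, chr6:88883474-88898780, minus strand) had 20.3, 19.02 and 22.2 FPKM in KO tumours and 14.8, 11.7 and 12.3 FPKM in WT tumours under PBS. The 3 KO libraries were above the 3 WT libraries, and the log2 difference was 0.63 ± 0.11 (adjusted p = 0.0024). Under anti-PD-1 Mcm2 had 16.997, 16.03 and 19.3 FPKM in KO tumours and 16.6, 16.1 and 13.8 FPKM in WT tumours, with a difference of 0.16 ± 0.11 (adjusted p = 0.354). Mcm5, Mcm6 and Mcm7 were lower in KO tumours averaged over treatments, between -0.26 and -0.17. Mcm3 and Mcm4 were not called, at -0.088 ± 0.065 and -0.081 ± 0.048. In their sum, the 6 genes had 164 to 179.7 FPKM in KO tumours and 182 to 205 FPKM in WT tumours under anti-PD-1, and 166 to 178 FPKM in KO tumours and 166 to 190.0 FPKM in WT tumours under PBS.

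At the fork, Prim1, the catalytic subunit of primase, had 14.7, 13.9 and 13.5 FPKM in KO tumours and 19.7, 21.7 and 18.5 FPKM in WT tumours under anti-PD-1, and 13.6, 13.8 and 11.7 FPKM in KO tumours and 16.6, 18.1 and 14.2 FPKM in WT tumours under PBS. Groups did not overlap under either treatment, and the log2 difference was -0.48 ± 0.096 (adjusted p = 0.0101) under anti-PD-1 and -0.30 under PBS. The clamp loader genes Rfc3 and Rfc5 were lower at -0.26 and -0.32 averaged over treatments, and Rpa2, a subunit of the single-strand binding protein RPA, at -0.23. Uhrf1, which carries DNA methylation through replication, was lower in KO tumours under anti-PD-1 at -0.32 and was not called under PBS, at 0.056. Pcna, the clamp itself, was not called, with 74.6 to 101 FPKM in KO tumours and 90.2 to 107 FPKM in WT tumours. Pola1, Pold1, Rfc4 and Fen1 were not called either, with averaged differences between -0.30 and 0.26.

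The nucleotide genes went both ways. Tk1 (ENSMUSG00000025574, chr11:117815526-117826092, minus strand), the salvage enzyme thymidine kinase, had 9.66, 10.6 and 11.3 FPKM in KO tumours and 13.8, 17.4 and 11.998 FPKM in WT tumours under anti-PD-1, and 9.24, 9.96 and 9.66 FPKM in KO tumours and 14.2, 14.03 and 12.1 FPKM in WT tumours under PBS. KO libraries were below WT libraries under each treatment, at -0.40 ± 0.12 (adjusted p = 0.046) under anti-PD-1 and -0.44 ± 0.12 (adjusted p = 0.021) under PBS. Rrm2 (ENSMUSG00000020649, chr12:24708241-24714146, plus strand), the S-phase subunit of ribonucleotide reductase, had 113, 104 and 108 FPKM in KO tumours and 85.04, 76.5 and 72.6 FPKM in WT tumours under PBS, a difference of 0.47 ± 0.13 (adjusted p = 0.0243) with no overlap. Under anti-PD-1 it had 114, 109 and 115 FPKM in KO tumours and 87.9, 108 and 68.9 FPKM in WT tumours, and 0.37 ± 0.13 (adjusted p = 0.0894) was not called, although the 3 WT libraries, which spread widely, all lay below the 3 KO libraries. Rrm1, the partner subunit, and Tyms, thymidylate synthase, were not called, at -0.058 ± 0.072 and -0.13 ± 0.069.

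By treatment, 9 of the 38 genes were called lower and 3 higher in KO tumours under PBS, where 11.6% of all tested genes were lower and 11.9% higher. Under anti-PD-1, 10 were called lower and 0 higher, where 7.05% and 5.01% of all tested genes were. E2f1, Gins1, Gins2, Mcm6, Prim1, Rfc5 and Tk1 were lower under both treatments, which is 7 of the 9 and 7 of the 10. The same overlap over all tested genes is not given here. The 2 comparisons share no library, but both come from 1 fit and use the same estimate of each gene's spread. With protein-coding genes rescaled to equal sums, the counts under PBS were 5 lower and 3 higher. Under PBS, leaving out WT replicate 2 or KO replicate 2 left 7 calls and leaving out KO replicate 3 left 6, against 12 with all libraries. The calls of E2f1, Gins1, Gins2, Gins4, Mcm2 and Mcm10 under PBS held in every such fit. Under PBS the call of Rrm2 held only without WT replicate 1, at adjusted p between 0.0504 and 0.0759 otherwise, and that of Tk1 only without WT replicate 3 or KO replicate 2 (0.0531 to 0.0712 otherwise). Those of Mcm6 and Prim1 held only without WT replicate 3, Rfc3 only without WT replicate 2 and Rfc5 only without WT replicate 1, at adjusted p between 0.0504 and 0.153 otherwise. Under anti-PD-1 Tk1 held only without WT replicate 3, Mcm6 only without WT replicate 2 and Orc6 in none of the 6 fits, at adjusted p between 0.05 and 0.132 where lost. Averaged over treatments, Mcm5, Cdc45 and Mcm7 lost their calls without 9, 9 and 8 of the 12 libraries in turn, at adjusted p between 0.054 and 0.0857, and the other 14 calls held. KO and WT libraries did not overlap, in either direction, for 14 of the 38 genes under PBS, against 39.8% of all tested genes. Under anti-PD-1 this held for 21 of the 38, against 34.1%.

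Some markers of immune and stromal cells were lower in the MC38 KO tumours under PBS. There 9 of 10 tested T cell markers, 5 of 11 macrophage markers and 3 of 9 fibroblast markers (Dcn, Pdgfra and Thy1) were called lower than in WT tumours. Their sums were 5.04 to 8.17 FPKM in KO and 28.7 to 46.5 FPKM in WT tumours for T cells, and 529 to 1318 FPKM in KO and 1699 to 1994 FPKM in WT tumours for macrophages. Fibroblast markers summed to 415 to 481 FPKM in KO and 724 to 933 FPKM in WT tumours. The fibroblast markers did not all go 1 way. Col1a1 (0.43 ± 0.53), Col1a2 (0.26 ± 0.59) and Pdgfrb (0.50 ± 0.25) lay above 0, and Col3a1, Lum and Fap below 0, none of them called. Of 8 endothelial markers 0 were called. Under anti-PD-1 0 of the 10 T cell markers, 0 of the 11 macrophage markers and 1 of the 9 fibroblast markers were called, and T cell sums were 35.5 to 49.9 FPKM in KO and 34.5 to 42.5 FPKM in WT tumours. The part of these cells in the results under PBS was not tested.

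Further genes of the pathway, outside the 38, were counted over lists made for this purpose. Of the E2F and RB regulators, 3 of 13 tested genes were lower in MC38 KO tumours averaged over treatments and 1 higher, among them the RB relatives Rbl1 (-0.44 ± 0.046) and Rbl2 (-0.42 ± 0.047) and the MYB factor Mybl2 (-0.39 ± 0.11). Of 14 further cyclins, kinases and inhibitors, 4 were higher and 3 lower, led by the CDK inhibitor Cdkn1a (1.07 ± 0.092), cyclin D2, Ccnd2 (0.98 ± 0.084), and the inhibitor Cdkn2b (0.55 ± 0.082). Of 25 further fork genes, 6 were lower and 0 higher, led by the histone chaperones Chaf1b (-0.52 ± 0.051) and Asf1b (-0.52 ± 0.074). Of 14 further origin genes, 2 were lower and 3 higher, among them the kinase Cdc7 (-0.53 ± 0.10) and the helicase Recql4 (0.52 ± 0.067). Of 18 further nucleotide genes, 4 were lower and 1 higher, and of 24 mitosis genes 6 were lower and 0 higher, among them Cdk1 (-0.31 ± 0.055). Of 19 tested p53 targets 6 were higher and 1 lower, led by Cdkn1a, which is on both lists, Sesn2 (0.78 ± 0.093) and Phlda3 (0.66 ± 0.065). Each of these shares stands beside the 14% lower and 13.4% higher of all tested genes.

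**Figure D2:**
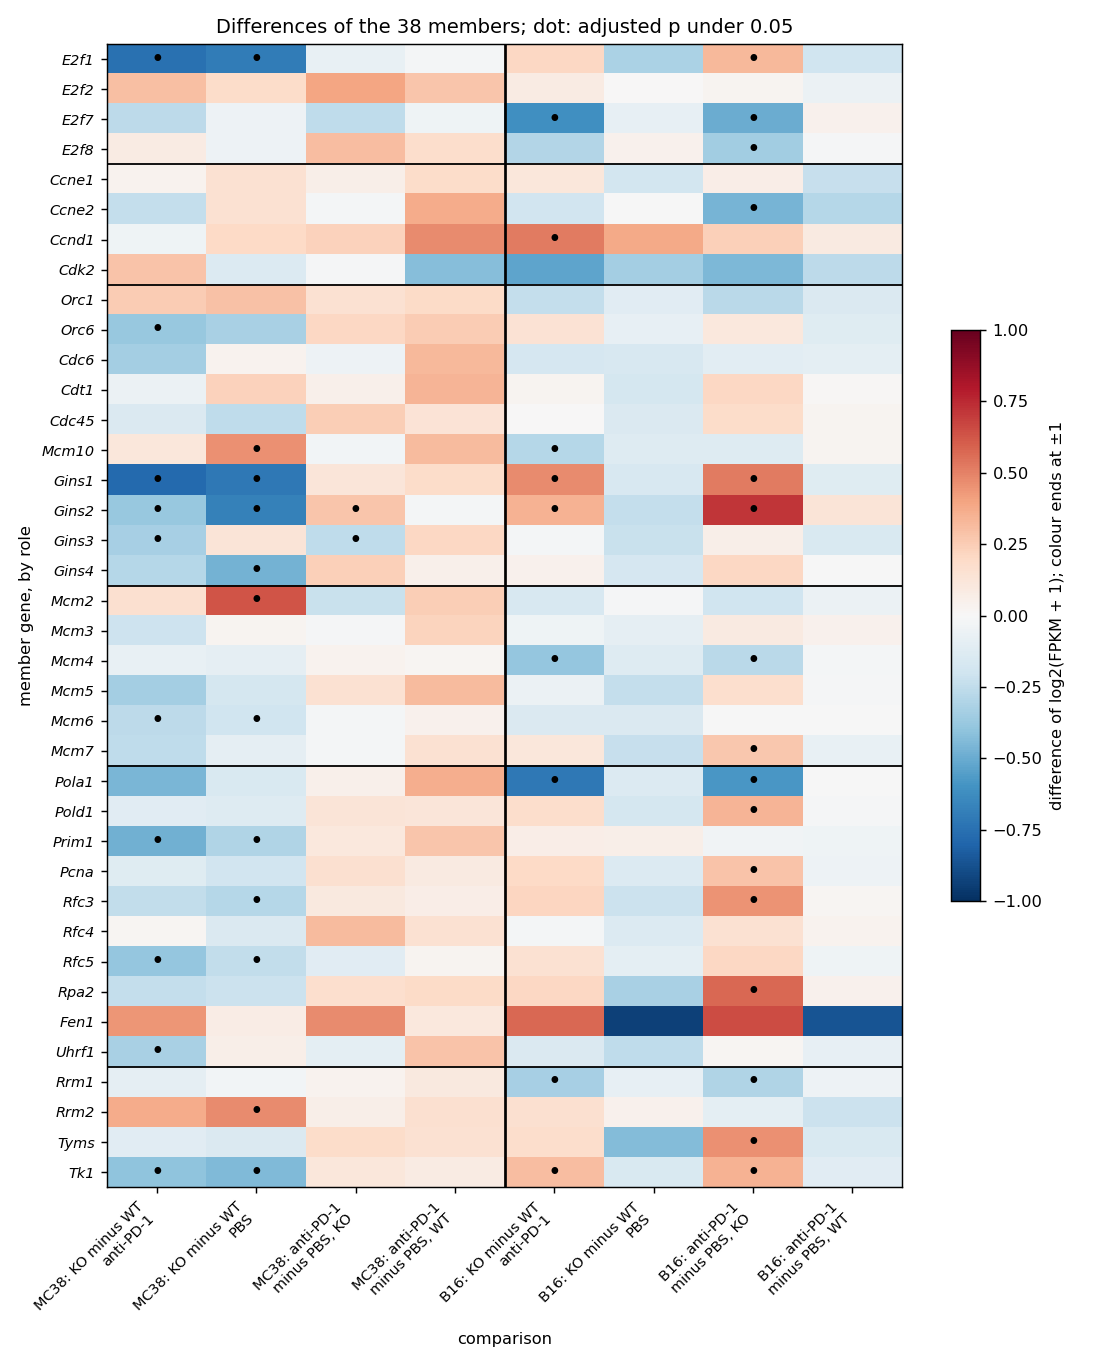
Log2 differences of the 38 genes, in rows by role, in 8 comparisons, in columns, as a colour scale centred on 0. A dot marks an adjusted p under 0.05. The MC38 columns of KO against WT hold the lower calls of E2f1, Gins1 and Gins2, and in the B16 columns calls stand only where the KO libraries under anti-PD-1 are compared.

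Anti-PD-1 changed few of these genes in MC38. In KO tumours 1 gene was called higher than under PBS, Gins2 at 0.28 ± 0.075 (adjusted p = 0.0432), and 1 lower, Gins3 at -0.26 ± 0.071 (adjusted p = 0.0481), while 6.12% of all tested genes were called higher and 2.86% lower. The Gins2 call was lost without any one of the 6 libraries (adjusted p between 0.0537 and 0.124), and the Gins3 call without any but KO PBS replicate 2 (between 0.0739 and 0.166). The counts were 0 higher and 1 lower with quantile normalization or with protein-coding genes rescaled, and 2 higher and 1 lower with median scaling. In the same comparison 10 of 10 tested T cell markers, 8 of 11 macrophage markers and 1 of 8 endothelial markers were called higher under anti-PD-1. Of 9 fibroblast markers only Thy1 was called, at 1.20 ± 0.26 (adjusted p = 0.0175). T cell markers summed to 35.5 to 49.9 FPKM under anti-PD-1 and 5.04 to 8.17 FPKM under PBS. The part of these cells in the Gins2 and Gins3 calls was not tested. In WT tumours 0 of the 38 genes were called by limma, and 0% of all tested genes, although 13 of the 38 had an unadjusted p under 0.05, as did 1953 of the 14209 tested genes. Of the 38 genes, 34 had a higher mean log2 value under anti-PD-1 than under PBS, with a median log2 difference of 0.17, against 0.021 over all tested genes. The highest of these was Ccnd1, cyclin D1, with 144, 151 and 131 FPKM under anti-PD-1 and 109, 87.2 and 112 FPKM under PBS, at 0.47 ± 0.11 (adjusted p = 0.134). The share of all tested genes with a higher mean under anti-PD-1 in WT tumours is not given here.

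In B16 under PBS, none of the 38 genes passed the threshold between KO and WT tumours. With limma 0 were called, against 0.47% of all 13627 tested genes. An unadjusted p under 0.05 was found for 8 of the 38 genes and for 1810 of the 13627 tested genes. KO and WT libraries did not overlap for 13 of the 38 genes and for 21.2% of all tested genes. The lowest adjusted p was that of E2f1, which had 10.9, 10.9 and 9.48 FPKM in KO tumours and 12.8, 13.7 and 13.2 FPKM in WT tumours, without overlap, a log2 difference of -0.32 ± 0.098 (adjusted p = 0.2). Of the 38 genes, 33 had a lower mean log2 value in KO tumours, with a median log2 difference of -0.15, against -0.047 over all tested genes. Gins1 and Gins2, which were called in MC38, had -0.16 ± 0.091 and -0.24 ± 0.11. The share of all tested genes with a lower mean in KO tumours is not given here. Over the 9833 genes with at least 1 FPKM in all 24 libraries, the library medians were 8.58 to 8.73 FPKM in KO and 8.97 to 9.24 FPKM in WT tumours under PBS.

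Under anti-PD-1, B16 KO tumours had more RNA than WT tumours for Ccnd1, Gins1, Gins2 and Tk1 and less for E2f7, Mcm4, Mcm10, Pola1 and Rrm1. The counts were 4 higher and 5 lower, while 14.9% of all tested genes were called higher and 25.9% lower. Gins1, Gins2 and Tk1 were called in opposite directions in the 2 lines under anti-PD-1. Averaged over treatments, 1 was called higher (Ccnd1) and 4 lower (E2f7, Mcm4, Mcm10 and Pola1), while 7.54% and 19% of all tested genes were. Of these, E2f7 and Mcm10 lost their calls without 9 and 7 of the 12 libraries in turn, at adjusted p between 0.0501 and 0.089. There were 3 calls in all without WT anti-PD-1 replicate 3, WT PBS replicate 2 or 3, or KO PBS replicate 1 or 2.

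**Figure D3:**
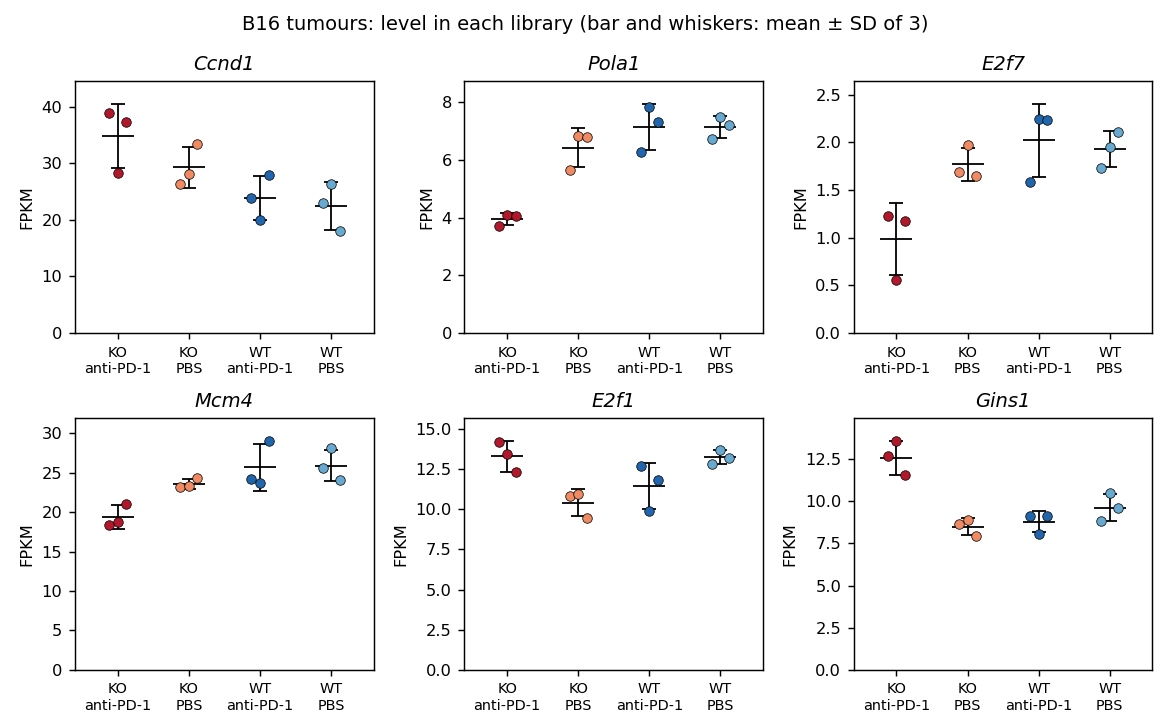
FPKM of 6 genes in the 12 B16 libraries, by group from left to right: KO under anti-PD-1, KO under PBS, WT under anti-PD-1 and WT under PBS. Each point is a library and each bar is a group mean with its SD (n = 3), on axes that start at 0. The KO libraries under anti-PD-1 stand apart for Pola1 and E2f7, which are lowest there, and for Gins1, which is highest there.

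Ccnd1 (ENSMUSG00000070348, chr7:144929931-144939925, minus strand), whose product binds CDK4 and CDK6, had 38.8, 28.3 and 37.2 FPKM in KO tumours and 23.8, 20.03 and 27.9 FPKM in WT tumours under anti-PD-1. Under PBS it had 26.3, 28.1 and 33.3 FPKM in KO tumours and 23.1, 26.3 and 18.01 FPKM in WT tumours. Its log2 differences were 0.52 ± 0.17 (adjusted p = 0.0295) under anti-PD-1 and 0.38 ± 0.17 (adjusted p = 0.367) under PBS, and 0.45 ± 0.12 (adjusted p = 0.0183) averaged. Under anti-PD-1 the call was lost without WT replicate 1 or 2 or KO replicate 1 or 3 (adjusted p between 0.0595 and 0.102), while the averaged call held without any of the 12 libraries.

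Pola1 (ENSMUSG00000006678, chrX:93304767-93632155, minus strand), the catalytic subunit of DNA polymerase alpha, had 3.71, 4.10 and 4.06 FPKM in KO tumours and 6.28, 7.85 and 7.32 FPKM in WT tumours under anti-PD-1, without overlap. Under PBS the values were 5.66, 6.85 and 6.81 FPKM in KO tumours and 6.74, 7.50 and 7.22 FPKM in WT tumours. The log2 differences were -0.71 ± 0.099 (adjusted p = 0.000323) under anti-PD-1 and -0.14 ± 0.099 (adjusted p = 0.608) under PBS. E2f7 (ENSMUSG00000020185, chr10:110745439-110787384, plus strand), a repressor of the E2F family, had 1.23, 0.557 and 1.17 FPKM in KO tumours and 1.58, 2.24 and 2.24 FPKM in WT tumours under anti-PD-1, a difference of -0.62 ± 0.16 (adjusted p = 0.00962), and 1.69, 1.97 and 1.64 FPKM in KO tumours and 1.73, 1.95 and 2.11 FPKM in WT tumours under PBS. Mcm4, a ring subunit, had 18.4, 18.7 and 21.1 FPKM in KO tumours and 24.3, 23.7 and 29.1 FPKM in WT tumours under anti-PD-1, a difference of -0.38 ± 0.093 (adjusted p = 0.00783), and 23.1, 23.3 and 24.3 FPKM in KO tumours and 25.6, 28.1 and 24.1 FPKM in WT tumours under PBS. For Pola1, E2f7 and Mcm4 the 3 KO libraries lay below the 3 WT libraries under anti-PD-1. Such a lack of overlap, in either direction, was found for 15 of the 38 genes and 50.8% of all tested genes in that comparison.

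Gins1 had 12.7, 13.6 and 11.5 FPKM in KO tumours and 9.16, 8.06 and 9.16 FPKM in WT tumours under anti-PD-1, a difference of 0.47 ± 0.091 (adjusted p = 0.00213). Under PBS it had 8.63, 8.91 and 7.94 FPKM in KO tumours and 8.81, 10.47 and 9.60 FPKM in WT tumours. The KO libraries under anti-PD-1 were the 3 highest of the 12. Gins2 differed by 0.35 ± 0.11 (adjusted p = 0.0325) and Tk1 by 0.31 ± 0.09 (adjusted p = 0.0194) under anti-PD-1, without overlap for either. The remaining calls were Rrm1, the large subunit of ribonucleotide reductase, at -0.33 ± 0.10 (adjusted p = 0.024), and Mcm10 at -0.28. The Gins2 call was lost without any but KO replicate 2 of the 6 libraries compared, Tk1 without WT replicate 1, Rrm1 without WT replicate 3 or KO replicate 1 or 3, and Mcm10 without WT replicate 3 or KO replicate 1 or 2, at adjusted p between 0.0519 and 0.108. Without KO replicate 1 there were 5 calls, against 9 with all libraries.

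The differences of the B16 KO libraries under anti-PD-1 followed transcript length. Of all tested genes, 40.8% were called against WT tumours under anti-PD-1 and 43.9% against KO tumours under PBS. Over the 11149 tested protein-coding genes the log2 difference between KO and WT tumours under anti-PD-1 fell with length at a Spearman rho of -0.63, with a median of 0.47 below 1000 bases and -0.72 at 8000 bases or more. Under PBS the rho was 0.052, and in MC38 it was 0.014 under anti-PD-1 and 0.17 under PBS. Pola1 (5346 bases) and E2f7 (5473 bases), which were lowest, have the longest transcripts of the 38 genes, and Gins1 (1087 bases), which was higher, the shortest. With the length trend of each library taken out, an alternative added after seeing the data, 4 genes were called higher and 1 lower in KO tumours under anti-PD-1. They were Ccnd1 at 0.70 ± 0.17 (adjusted p = 0.0135), Gins2 at 0.54 ± 0.12 (adjusted p = 0.00728), Gins1 at 0.24 ± 0.08 (adjusted p = 0.0439) and E2f2 at 0.39 ± 0.12 (adjusted p = 0.0323), higher, and Pola1 at -0.34 ± 0.084 (adjusted p = 0.0147), lower. E2f7 had -0.22 ± 0.16 (adjusted p = 0.3), Mcm4 -0.23 ± 0.085 (adjusted p = 0.0675) and Tk1 0.11 ± 0.089 (adjusted p = 0.367), and Mcm10 changed sign to 0.039 ± 0.089 (adjusted p = 0.772). In MC38 the same step left E2f1 at -0.72 ± 0.068 (adjusted p = 5.07e-05) and Gins1 at -0.72 ± 0.079 (adjusted p = 0.000127) averaged over treatments. Over the 38 genes the rho in MC38 was 0.43 under PBS, 0.19 under anti-PD-1 and 0.31 averaged. Without the trend 16 of the 17 averaged MC38 calls stayed, and that of Cdc45 was lost (adjusted p = 0.0573). Prim1 (adjusted p = 0.0548) and Rfc3 (0.0652) lost their calls under PBS, and Orc6 (0.0534) and Tk1 (0.0501) under anti-PD-1.

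Scaling also moved the B16 calls. For KO against WT under anti-PD-1 the counts were 9 higher and 3 lower with median scaling, and 1 higher and 11 lower with protein-coding genes rescaled to equal sums, which moved the median of all genes to -0.23. Ccnd1 was above 0 and Pola1 below 0 under each of these scalings. Averaged over treatments the counts were 2 higher and 1 lower with median scaling, 2 and 3 with quantile normalization, and 0 and 13 with protein-coding genes rescaled. Some markers of other cells were higher in the B16 KO tumours under anti-PD-1 as well. T cell markers summed to 8.74 to 28.7 FPKM in KO tumours against 0.92 to 7.46 FPKM in WT tumours, and macrophage markers to 512 to 1339 FPKM in KO tumours against 112 to 562 FPKM in WT tumours. Fibroblast markers summed to 56.1 to 337 FPKM in KO tumours against 14.4 to 147 FPKM in WT tumours, and skeletal muscle markers to 6.44 to 1507 FPKM in KO tumours against 0.45 to 1.07 FPKM in WT tumours. Of the markers tested, 3 of 4 for T cells, 3 of 11 for macrophages, 1 of 7 for endothelial cells and 2 of 2 for muscle were called higher. Of 8 fibroblast markers only Thy1 was called, at 1.23 ± 0.38 (adjusted p = 0.0256). Of 7 melanocyte markers 3 were called lower and 1 higher, and they summed to 4885 to 6285 FPKM in KO and 5349.9 to 6014 FPKM in WT tumours. The part of these cells in the calls was not tested.

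The lists of further genes were also lower in part in these tumours. Under anti-PD-1, 10 of 14 E2F and RB regulators were lower in B16 KO tumours and 1 higher, led by Tfdp2 (-1.09 ± 0.28), a DNA-binding partner of E2F proteins, and Rbl1 (-0.96 ± 0.11). Of 14 further origin genes 9 were lower and 0 higher, led by Topbp1 (-0.83 ± 0.12), and of 24 mitosis genes 14 were lower and 1 higher, led by Cenpf (-1.25 ± 0.12) and Mki67 (-1.25 ± 0.13). Further fork genes went both ways, with 6 of 25 lower and 7 higher, as Hells (-0.85 ± 0.14) and Pold4 (0.71 ± 0.13) show. Of 18 nucleotide genes 3 were lower and 2 higher, of 11 cyclin and inhibitor genes 2 were lower and 3 higher, and of 16 p53 targets 5 were lower and 4 higher, Cdkn1a among them at 0.75 ± 0.13. These shares stand beside 25.9% lower and 14.9% higher of all tested genes. Several of the genes that lead have long transcripts, with 11130 bases for Cenpf, 10061 for Mki67, 7354 for Tfdp2 and 5224 for Topbp1. Without the length trend Cenpf had -0.50 ± 0.10 (adjusted p = 0.00533), Mki67 -0.54 ± 0.096 (adjusted p = 0.00283) and Tfdp2 -0.52 ± 0.29 (adjusted p = 0.191). The counts were then 14 lower and 0 higher of the mitosis genes, 8 and 0 of the E2F and RB regulators, 4 and 0 of the origin genes, and 3 lower and 7 higher of the fork genes.

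Under anti-PD-1 against PBS, B16 KO tumours had 10 of the 38 genes called higher and 6 lower, while 18.9% and 25% of all tested genes were. This comparison shares the KO libraries under anti-PD-1 with the one above. The higher genes with the largest differences were Gins2 at 0.72 ± 0.11 (adjusted p = 0.000751), Rpa2 at 0.57 ± 0.11 (adjusted p = 0.00221), Gins1 at 0.52 ± 0.091 (adjusted p = 0.00131) and Tyms at 0.45 ± 0.15 (adjusted p = 0.0326). The others, Rfc3, Tk1, Pold1, E2f1, Pcna and Mcm7, lay between 0.27 and 0.45. Lower were Pola1 at -0.58 ± 0.099 (adjusted p = 0.00106), E2f7 at -0.50 ± 0.16 (adjusted p = 0.025), Ccne2, cyclin E2, at -0.47 ± 0.16 (adjusted p = 0.0312) and E2f8 at -0.35 ± 0.13 (adjusted p = 0.0458), then Rrm1 and Mcm4 at -0.30 and -0.27. In the same comparison 4 of 4 tested T cell markers, 9 of 11 macrophage, 5 of 8 fibroblast, 4 of 7 endothelial and 2 of 2 skeletal muscle markers were called higher under anti-PD-1, and of 7 melanocyte markers 3 were lower and 1 higher. The part of these cells in the calls was not tested. Tyms and E2f8 were called although their libraries overlapped between the treatments. Without the length trend 7 were higher (Gins2, Tyms, Pold1, Rpa2, E2f1, Mcm7 and Gins1) and 0 lower. The counts were 12 higher and 3 lower with median scaling and 3 higher and 10 lower with protein-coding genes rescaled, and they came to 9 or 10 calls when KO PBS replicate 2 or 3 or KO anti-PD-1 replicate 1 or 2 was left out. Pold1, Mcm7 and Mcm4 lost their call without 5 of the 6 libraries in turn, Tyms, Ccne2, E2f8 and Rrm1 without 4, E2f7 without KO PBS replicate 2 or KO anti-PD-1 replicate 2, and E2f1 without KO PBS replicate 3 or KO anti-PD-1 replicate 1, at adjusted p between 0.0551 and 0.166. In WT tumours 0 of the 38 genes and 0% of all tested genes were called by limma between anti-PD-1 and PBS, 2 of the 38 and 281 of all had an unadjusted p under 0.05, and the differences of the 38 genes ran from -0.86 for Fen1 to 0.13 for Gins2.

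The treatment difference was unequal between B16 KO and WT tumours for 9 of the 38 genes. In the interaction, 8 were called higher and 1 lower, while 8.9% of all tested genes were called higher and 14.6% lower. Fen1, the flap endonuclease of Okazaki fragments, was highest at 1.51 ± 0.42 (adjusted p = 0.0262), followed by Gins1 at 0.63 ± 0.13 (adjusted p = 0.00682), Gins2 at 0.59 ± 0.16 (adjusted p = 0.0257) and Rpa2 at 0.53 ± 0.16 (adjusted p = 0.0325), and Pola1 was lower at -0.58 ± 0.14 (adjusted p = 0.0148). E2f1 had 0.52 ± 0.14 (adjusted p = 0.0217), its KO mean being 13.3 ± 0.964 FPKM under anti-PD-1 and 10.4 ± 0.823 FPKM under PBS, and its WT mean 11.5 ± 1.43 FPKM under anti-PD-1 and 13.2 ± 0.43 FPKM under PBS (SD, n = 3 each). Tk1, Rfc3 and Pcna had 0.46, 0.43 and 0.33. Gins1, E2f1 and Pola1 kept their calls without any of the 12 libraries, while Pcna, Rfc3, Rpa2, Gins2, Fen1 and Tk1 lost theirs without 11, 9, 7, 4, 3 and 2 of them in turn, at adjusted p between 0.0502 and 0.0963. E2f1, Gins2 and Fen1 kept theirs without the length trend. With protein-coding genes rescaled, 2 were higher and 3 lower. Leaving out WT PBS replicate 2 or 3 left 5 calls and leaving out KO PBS replicate 2 left 4.

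Fen1 and Cdk2 carry limits of their own. Fen1 had 9.66, 20.9 and 10.6 FPKM in B16 KO tumours and 7.39, 8.67 and 8.99995 FPKM in WT tumours under anti-PD-1, and 8.10, 6.92 and 8.69 FPKM in KO tumours and 19.3, 21.3 and 9.69 FPKM in WT tumours under PBS. In MC38 it ranged over 7.52 to 24.4 FPKM in KO tumours and 8.88 to 23.9 FPKM in WT tumours, a wide spread within groups. It lies opposite Tmem258 over 156 bases and opposite the antisense gene Gm10143 over 3253 bases, whose reads cannot be told apart from its own without strand. Cdk2, the kinase of cyclin E, had 45.2 to 129 FPKM over the 12 B16 libraries and 5.14 to 11.3 FPKM over the 12 MC38 libraries. It overlaps the melanocyte gene Pmel on the opposite strand over 837 bases, and Pmel had 1744 to 2786 FPKM in the B16 libraries and 0.0362 to 0.346 FPKM in the MC38 libraries. For that reason Cdk2 values in B16 cannot be told apart from Pmel reads. In all, 16 of the 38 genes overlap a gene on the opposite strand, Tk1, Rfc5, Mcm7, Orc1, Orc6, Cdc45, E2f7 and Ccnd1 among them, and Pcna and Tyms have processed pseudogene copies.

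The averaged difference between KO and WT tumours was unequal between the 2 lines for 12 of the 38 genes, tested over all 24 libraries. Compared with B16, the MC38 difference was lower for 9 and higher for 3, while 11.6% of all 15655 tested genes were called lower and 19.7% higher. Gins1 was lowest at -0.90 ± 0.11 (adjusted p = 5.46e-06), then E2f1 at -0.67 ± 0.093 (adjusted p = 3.13e-05), Gins2 at -0.58 ± 0.093 (adjusted p = 0.000122) and Tk1 at -0.50 ± 0.10 (adjusted p = 0.00139). Prim1, Orc6, Rfc5, Gins4 and Rfc3 lay between -0.45 and -0.26. Higher were Mcm10 at 0.49 ± 0.087 (adjusted p = 0.000319), Mcm2 at 0.48 ± 0.10 (adjusted p = 0.0014) and Orc1 at 0.45 ± 0.16 (adjusted p = 0.0434). Mcm10 was called in both lines and in opposite directions, at 0.29 ± 0.066 in MC38 and -0.21 ± 0.063 in B16. The B16 call was lost without 7 of the 12 libraries in turn, and without the length trend the B16 difference was -0.028 ± 0.063 (adjusted p = 0.794). The calls of Orc1, Orc6 and Rfc3 were lost without 14, 18 and 11 of the 24 libraries in turn (adjusted p between 0.0502 and 0.0832), and the other 9 held without any. In B16 the averages of E2f1, Gins1 and Gins2 join differences of opposite sign. They were -0.32, -0.16 and -0.24 under PBS, none of them called, and 0.20, 0.47 and 0.35 under anti-PD-1. With median scaling the counts of the line comparison were 12 lower and 2 higher, and with protein-coding genes rescaled 6 and 6.

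Because the B16 KO libraries under anti-PD-1 stood apart, the same difference was computed from the PBS libraries alone, an alternative chosen after seeing the data. Then 4 genes were called. Gins1 at -0.55 ± 0.15 (adjusted p = 0.0262) and Gins2 at -0.44 ± 0.13 (adjusted p = 0.0425) were lower in MC38 relative to B16, and Mcm2 at 0.64 ± 0.14 (adjusted p = 0.00828) and Mcm10 at 0.59 ± 0.12 (adjusted p = 0.00578) were higher. The other 8 calls were lost, with E2f1 at -0.38 ± 0.13 (adjusted p = 0.0755) and Tk1 at -0.28 ± 0.15 (adjusted p = 0.25).

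**Figure D4:**
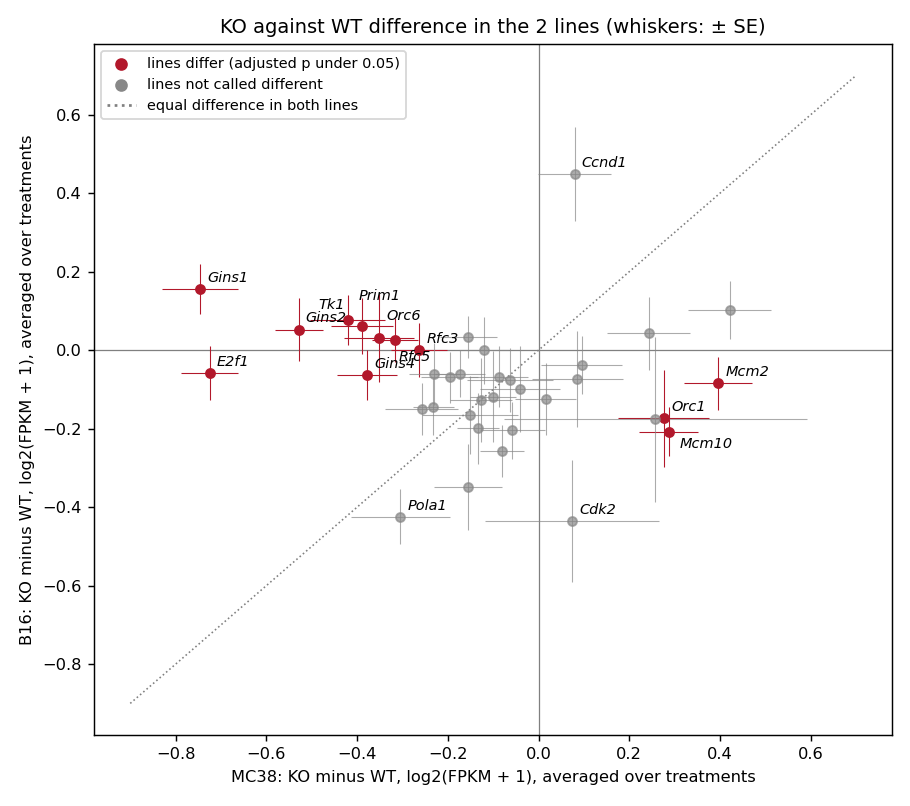
Log2 difference of KO minus WT tumours averaged over treatments, in MC38 on the horizontal axis and in B16 on the vertical axis. Each point is 1 of the 38 genes, whiskers are the standard error of the fit, and red points are the 12 genes whose difference was unequal between the lines. E2f1, Gins1 and Gins2 lie far left of 0 in MC38 and near 0 in B16, where each average joins a difference below 0 under PBS and one above 0 under anti-PD-1.

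Levels of the genes, compared as FPKM, spanned a wide range in both lines. Averaged over 12 libraries the highest in MC38 were Ccnd1 (125 FPKM), Rrm2 (96.9), Pcna (94.6) and Mcm6 (46.6), and in B16 Pcna (112 FPKM), Cdk2 (82.3, with the limit above), Rrm2 (70.6) and Mcm6 (42.3). The ranges of Rrm2 and Pcna over the MC38 libraries overlapped. The lowest were Tyms (3.87) and E2f7 (3.88) in MC38 and E2f7 (1.68) and E2f2 (2.54) in B16. E2f1 was 18th of 38 in both lines, with 15.6 FPKM in MC38 and 12.1 FPKM in B16. The 38 genes together summed to 806 to 877 FPKM in KO and 859 to 946 FPKM in WT tumours of MC38 under anti-PD-1, and to 744 to 827 FPKM in KO and 752 to 849.8 FPKM in WT tumours under PBS. In B16 the sums were 716 to 779 FPKM in KO and 711 to 806 FPKM in WT tumours under anti-PD-1, and 712 to 743 FPKM in KO and 746 to 857 FPKM in WT tumours under PBS. These B16 sums include Cdk2, with the limit above. Over the 703 pairs of genes the median correlation of log2 values, taken as deviations from group means, was 0.29 over the 12 MC38 libraries and 0.23 over the 12 B16 libraries. Of these pairs, 74.1% and 72.4% lay above 0, where the points share a library and its depth. The same values over pairs of all tested genes are not given here.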

How the data were processed

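RNA of whole tumour tissue was measured by sequencing in 24 libraries, and the authors deposited a table of FPKM values for each library, with Ensembl gene IDs. The submitters' processing notes name FastQC, STAR 2.5, Cuffnorm, DESeq and the build mm10. Which tool made the values, the strand setting and the read filters are not given in the sources used here. Whole fragments could not be recovered from the low values, of which 9.28% to 24.39% were whole multiples of 1 step within 0.02, so no count test was run.

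IDs were matched to GENCODE M21 (55154 of 55335). Groups followed the labels. For each line, every gene that reached 1 FPKM in 3 or more of its 12 libraries was fitted with limma 3.58.1 in R 4.3.3 on log2(FPKM + 1), with 1 mean per group and a mean-variance trend, and p-values were adjusted by Benjamini-Hochberg over all tested genes (14209 in MC38, 13627 in B16, 15655 in the fit of all 24). A gene was called at an adjusted p under 0.05. The scripts were tested on simulated data for KO against WT under PBS. Of simulated 1.5-fold changes in FPKM + 1, 58.2% were called in MC38 and 34.3% in B16. Of 2-fold changes 85.1% and 82.1% were called, so smaller changes can be missed. Alternatives were a pseudocount of 0.1, no filter, quantile normalization, protein-coding genes rescaled to equal sums, a fit of all 24 libraries, only the libraries compared, and leaving out each library. Median scaling, removal of the length trend (also for the further lists) and the PBS-only line comparison were added after seeing the data. No pair of libraries among 276 shared more than 0.0243% of identical values.

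The genes and lists were chosen with earlier results of these data known. Values of every library are given for E2f1, for the 4 largest averaged calls per line and for 1 called gene of any role left out. Full statistics go to at most the 4 largest calls per direction and comparison, to E2f1, and, outside that rule, to Gins2 and Gins3 under anti-PD-1 and Tk1 under PBS in MC38. At most 3 genes of a further list are named. Gins3, Mcm2, Mcm10, Prim1, Tk1, Fen1 and Cdk2, and the genes named beside calls that were lost, were chosen after their values were seen.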

Additional observations from a re-analysis of the deposited data

Results flagged for a closer look

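For 22 results the effect of 1 contrast differed between 2 groups by a test of the difference itself (limma, adjusted p under 0.05 over all tested genes). In MC38 the difference between KO and WT tumours changed with treatment for Gins3 (-0.46 on the log2 scale, anti-PD-1 minus PBS). In B16 it changed with treatment for Fen1 (1.51), Gins1 (0.63), Gins2 (0.59), Rpa2 (0.53), E2f1 (0.52), Tk1 (0.46), Rfc3 (0.43), Pcna (0.33) and Pola1 (-0.58).

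Between the lines, as MC38 minus B16, the averaged difference of KO and WT tumours was unequal for Mcm10 (0.49), Mcm2 (0.48), Orc1 (0.45), Rfc3 (-0.26), Gins4 (-0.31), Rfc5 (-0.34), Orc6 (-0.38), Prim1 (-0.45), Tk1 (-0.50), Gins2 (-0.58), E2f1 (-0.67) and Gins1 (-0.90). The B16 KO libraries under anti-PD-1, with their length trend, enter all of these but Gins3, and Gins1, Gins2, Mcm2 and Mcm10 were also called from the PBS libraries alone.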

How the results depend on the processing

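Of 1713 alternative values of 96 results for single genes, 1324 kept their direction and call, 383 lost the call, 2 gained one and 4 changed sign. Those 4, all in B16, were Pcna in KO tumours for anti-PD-1 against PBS with quantile normalization (-0.035), E2f1 for KO against WT under anti-PD-1 with protein-coding genes rescaled (-0.026), E2f1 averaged over treatments with median scaling (0.024), and Mcm10 for KO against WT under anti-PD-1 without the length trend (0.039). The number of calls moved by over 1.5 times as follows. For anti-PD-1 against PBS in MC38 KO tumours (2 calls) it was 0 with no filter, with all 24 libraries or with only 6, and 1 with quantile normalization or protein-coding genes rescaled. The MC38 interaction (1) gave 0 with no filter or all 24 libraries and 2 without the length trend. For B16 KO against WT under anti-PD-1 (9) it was 5 without the length trend, and for anti-PD-1 against PBS in B16 KO tumours (16) 9 with no filter, 10 with only 6 libraries and 7 without the length trend. Averaged over treatments in B16 (5) it was 2 with no filter, 13 with protein-coding genes rescaled, 3 with median scaling and 2 without the length trend. The B16 interaction (9) gave 4, 5 and 3 with no filter, protein-coding genes rescaled and no length trend, and the line comparison (12) gave 4 from PBS libraries only.

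Leaving out 1 library at a time gave 6 to 11 calls for MC38 KO against WT under PBS (12 with all), 7 to 9 under anti-PD-1 (10), 0 to 2 for anti-PD-1 against PBS in KO tumours (2), 14 to 19 averaged (17) and 0 for the interaction (1). In B16 it gave 5 to 9 for KO against WT under anti-PD-1 (9), 9 to 14 for anti-PD-1 against PBS in KO tumours (16), 3 to 6 averaged (5) and 4 to 8 for the interaction (9), and 9 to 14 for the line comparison (12). B16 KO against WT under PBS and both WT comparisons stayed at 0. Calls that held in every fit and setting numbered 6 of 12 under PBS, 5 of 10 under anti-PD-1 and 14 of 17 averaged for MC38 KO against WT, 0 of 2 for anti-PD-1 against PBS in MC38 KO tumours and 0 of 1 for the MC38 interaction. In B16 they numbered 2 of 9 for KO against WT under anti-PD-1, 1 of 5 averaged, 3 of 16 for anti-PD-1 against PBS in KO tumours and 0 of 9 for the interaction, and 4 of 12 for the line comparison. The cause of these changes was not tested. No paired analysis was possible because replicate numbers are only the order of deposit. Depth was known only roughly, so no counting error is given for low values.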
